A study of Rattus norvegicus with 9 samples.

Results

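The genes described here are 8 liver genes of glucose metabolism, measured in rat liver cells before and after birth: Pck1, G6pc1 and Fbp1 of gluconeogenesis, Gys2 and Pygl of glycogen metabolism, the glucose transporter gene Slc2a2, the pyruvate kinase gene Pklr and the fructokinase gene Khk. They were taken by symbol from a list of hepatic glucose genes. All 8 were found, each as 1 probe set, among the 14497 genes that the array annotation names singly. Of the 9 F344 rat preparations, each on 1 Affymetrix Rat ST 1.0 array, 3 were hepatocytes of rats aged 5 to 6 weeks with free access to food, released by collagenase perfusion. The other 6 came from livers of embryonic day 19, dissociated with collagenase and immunopurified with antibodies to leucine aminopeptidase (LAP), a hepatic surface marker, and OC.2, a ductal marker. The labels call 3 of these LAP+/OC.2+ and 3 LAP+/OC.2- (below, OC.2+ and OC.2- cells). The isolation text of both fetal groups names the same double positive selection, and the OC.2+ group is described in places as LAP-OC2+. Titles and cell type labels were followed here. No treatment or altered allele is named for any group, the animals' sex and any pooling of fetuses are not stated, and age cannot be told apart from the way the cells were isolated.

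The liver keeps blood glucose up between meals by breaking down glycogen and by making glucose from lactate, amino acids and glycerol. Phosphoenolpyruvate carboxykinase (Pck1), fructose-1,6-bisphosphatase (Fbp1) and glucose-6-phosphatase (G6pc1) catalyse steps that glycolysis cannot run backwards, and glucose-6-phosphatase also ends glycogen breakdown by releasing free glucose. Glycogen is built by glycogen synthase (Gys2) and opened by glycogen phosphorylase (Pygl). In the fetus glucose arrives from the mother through the placenta, glycogen is stored in late gestation, and Pck1 is known as a gene switched on around birth.

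Pck1 and G6pc1 are known targets of glucagon acting through cyclic AMP and were far lower in both fetal groups than in adult cells, while Gys2 was higher in OC.2- cells. Their promoters are shown because these 3 genes carry the main contrast. The sequences are RefSeq's, on build GRCr8, from 250 bases before to 50 bases after the start site. Capitals mark matches to any of 6 motifs searched on both strands: ACGTCA (core of cyclic AMP response elements), TGTTTAC (forkhead), GTTAAT (part of the HNF1 site), CACGTG (E-box), CAAAGTCCA (HNF4-like) and TGTTCT (part of the glucocorticoid receptor site).
Pck1, chr3:182348322-182348621, plus strand: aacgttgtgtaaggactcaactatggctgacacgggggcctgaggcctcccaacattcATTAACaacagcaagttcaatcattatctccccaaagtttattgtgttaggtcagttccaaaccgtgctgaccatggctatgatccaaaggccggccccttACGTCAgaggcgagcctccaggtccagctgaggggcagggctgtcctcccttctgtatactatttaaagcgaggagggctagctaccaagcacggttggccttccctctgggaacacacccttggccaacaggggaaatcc
G6pc1, chr10:86807409-86807708, plus strand: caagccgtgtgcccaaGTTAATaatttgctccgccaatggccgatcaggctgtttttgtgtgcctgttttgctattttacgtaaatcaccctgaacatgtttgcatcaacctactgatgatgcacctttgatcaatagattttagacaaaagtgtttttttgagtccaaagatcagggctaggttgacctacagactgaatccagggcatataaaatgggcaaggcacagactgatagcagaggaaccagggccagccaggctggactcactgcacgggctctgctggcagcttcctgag
Gys2, chr4:177137187-177137486, minus strand: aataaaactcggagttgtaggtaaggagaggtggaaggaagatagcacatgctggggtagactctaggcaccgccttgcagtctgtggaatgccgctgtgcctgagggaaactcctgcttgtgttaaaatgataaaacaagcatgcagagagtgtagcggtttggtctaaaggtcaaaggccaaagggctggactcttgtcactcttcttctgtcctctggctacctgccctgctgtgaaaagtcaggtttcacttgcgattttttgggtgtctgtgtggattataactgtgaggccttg
In the Pck1 promoter ACGTCA began at position -91 from the start site and GTTAAT matched on the reverse strand from position -192. In G6pc1, GTTAAT matched from position -234. The Gys2 window held no capitals. ACGTCA was present in 7.94% and GTTAAT in 7.45% of 33469 rat promoters of this length. TGTTTAC was in 3.78%, CACGTG in 6.42%, CAAAGTCCA in 0.391% and TGTTCT in 20.7%. All 8 genes had an entry, and the only other match among them was TGTTCT in Slc2a2, at position -153. These matches describe letters in the window and show no binding. Only the exact letters were searched, so a window without a match, such as that of G6pc1 for ACGTCA, may hold a variant of the site.

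Values are the authors' intensities on a linear scale, and differences are of log2 intensity. Median intensity ranged from 79.5 to 81.0 for adult cells, from 86.5 to 89.7 for OC.2- cells and from 87.7 to 88.9 for OC.2+ cells. Other scalings moved the median log2 difference over all genes. The largest move was from 0.066 to -0.063 for OC.2- against adult cells, after median centring. For OC.2+ against adult cells it was from 0.108 to -0.028, after cyclic loess. Between the fetal groups it was smaller, from 0.036 to -0.015, after cyclic loess. The summed intensity of 10 hepatocyte marker genes (albumin, transthyretin and other plasma proteins) ranged from 95667 to 104104 for adult cells, from 82396 to 88555 for OC.2- cells and from 34771 to 38361 for OC.2+ cells. That of 7 measured erythroid markers was 476 to 535, 11359 to 14122 and 29239 to 29597 in the same order. For 8 granulocyte markers it was 437 to 498, 496 to 558 and 13848 to 15480, and 7 of the 8 lay below the array median in OC.2- cells. The 5 biliary markers summed to 326 to 361, 386 to 566 and 376 to 384, with 4 of the 5 below that median in each fetal group and all 5 in adult cells, so most defining ductal markers were dim in every group. Among the other lists, 5 endothelial markers summed to 611 to 803, 3111 to 4217 and 512 to 528, 6 stellate and mesenchymal markers to 608 to 712, 4229 to 4935 and 3165 to 3887, and 7 macrophage markers to 785 to 873, 1671 to 2247 and 1373 to 1716. Fewer hepatic cells and less RNA per hepatic cell cannot be told apart in such preparations, and the part of the other cells in the differences below was not tested.

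In OC.2- against adult cells 7 of the 8 genes were lower and Gys2 was higher at an adjusted p of 0.05, where 44.5% of all genes were called, 20.9% lower and 23.7% higher. In OC.2+ against adult cells 7 were lower and Pklr was not called, with 55.4% of all genes called, 23.4% lower and 32% higher. Between the fetal groups 7 were lower in OC.2+ cells and Pklr was higher, with 38.5% of all genes called, 18.2% lower and 20.3% higher. The median log2 difference of the members was -1.18, -3.24 and -1.15 in these comparisons, and that of all genes 0.07, 0.11 and 0.04. At least 2-fold lower were 4, 7 and 6 members, where the share of all genes was 6.58%, 11.1% and 6.63%. At least 2-fold higher was 1 member, Gys2, in the first comparison and none in the others, where the shares were 4.06%, 7.82% and 3.69%. The arrays of the groups did not overlap for 8, 7 and 8 members, against 51.4%, 62.2% and 46.5% of all genes. Without overlap 28.2%, 37.2% and 25.8% of all genes were higher and 23.2%, 25% and 20.7% lower. The comparisons share arrays and are not independent of each other.

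**Figure D1:**
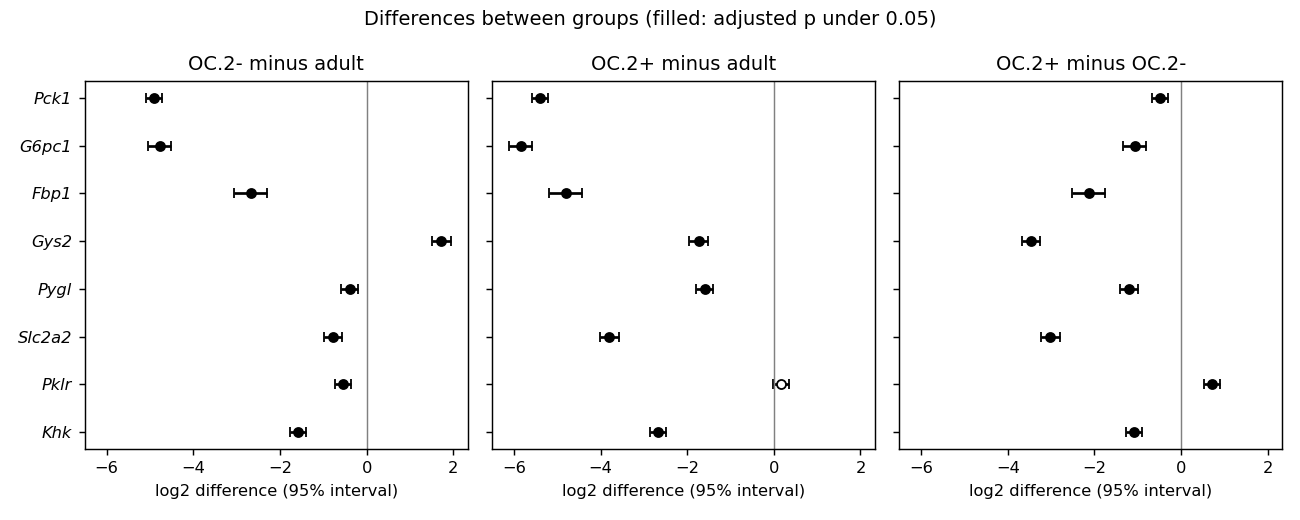
Log2 difference (x axis) of each gene (y axis) in the 3 comparisons, with 95% intervals from limma over 9 arrays. Filled points passed an adjusted p of 0.05. Gys2 lies to the right of zero in OC.2- minus adult cells and to the left in the other panels, and only Pklr against adult cells in the middle panel is unfilled.

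Among the genes of gluconeogenesis, Pck1, which makes phosphoenolpyruvate from oxaloacetate, showed the widest gap between fetal and adult arrays together with G6pc1. The intensity of Pck1 was 5830, 5107 and 4799 on the 3 adult arrays, 173.9, 172.5 and 173.9 on the OC.2- arrays and 131.2, 115.8 and 125.6 on the OC.2+ arrays. The 3 groups did not overlap, and Pck1 moved from among the brightest genes, at the 99.4th percentile of its array or above, to between the 56th and 72.9th. It was 30.1-fold lower in OC.2- than in adult cells (95% interval 26.4 to 34.4, limma adjusted p = 3.15e-13) and 42.1-fold lower in OC.2+ cells (95% interval 36.9 to 48.1, adjusted p = 1.02e-13). The fetal groups differed from each other far less, by 1.40-fold (95% interval 1.23 to 1.59, adjusted p = 0.00054, lower in OC.2+ cells).

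G6pc1, which releases free glucose from glucose 6-phosphate, read 3757, 4961 and 4077 in adult, 154.6, 181.4 and 132.1 in OC.2- and 73.04, 72.24 and 76.1 in OC.2+ cells. Again no array of a group reached into another. The OC.2+ values stood at the 30.4th to 34th percentile of their arrays, and the files hold no detection call to tell such a level from background. G6pc1 was 27.4-fold lower in OC.2- cells than in adult cells (95% interval 22.8 to 32.9, adjusted p = 7.64e-12), 57.4-fold lower in OC.2+ than in adult cells (95% interval 47.8 to 69.1, adjusted p = 4.97e-13) and 2.10-fold lower in OC.2+ cells compared with OC.2- (adjusted p = 1.07e-05). Folds that end at so dim a level can be understated.

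Fbp1, which removes a phosphate from fructose 1,6-bisphosphate, stepped down more evenly. Its intensity was 2659, 2921 and 2527 in adult, 439.6, 492.1 and 346.5 in OC.2- and 100.7, 71.11 and 124.8 in OC.2+ cells. The groups did not overlap, and the OC.2+ arrays spread most, with an SD of 0.41 log2 units against 0.11 in adult cells. Fbp1 was 6.40-fold lower in OC.2- than in adult cells (95% interval 4.90 to 8.35, adjusted p = 6.04e-08) and 4.38-fold lower in OC.2+ cells compared with OC.2- (95% interval 3.35 to 5.72, adjusted p = 5.19e-07). In OC.2+ against adult cells the difference was 28.0-fold (adjusted p = 6.71e-11).

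**Figure D2:**
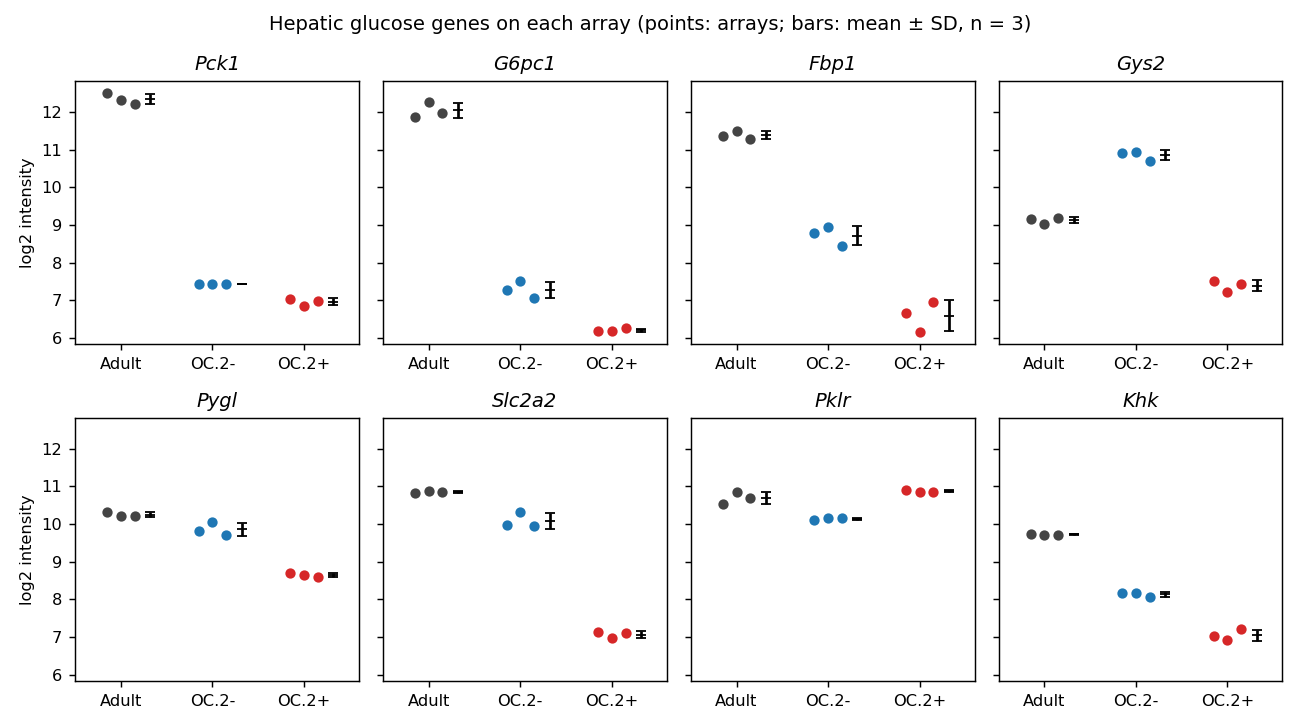
Log2 intensity (y axis) of the 8 genes on each of the 9 arrays, by group (x axis), with the mean and SD of 3 arrays beside the points. Pck1, G6pc1 and Fbp1 lie highest on the adult arrays, Gys2 lies highest on the OC.2- arrays, and Pklr is the only gene whose OC.2+ arrays lie above its OC.2- arrays.

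Glycogen synthase ran the other way between OC.2- and adult cells. Gys2, the liver form that extends glycogen chains, had intensities of 575.3, 523 and 582.1 in adult cells, 1938, 1970 and 1658 in OC.2- cells and 181.3, 149.9 and 174.1 in OC.2+ cells. The OC.2- arrays were all above the adult arrays and the OC.2+ arrays all below them. Gys2 was 3.31-fold higher in OC.2- than in adult cells (95% interval 2.85 to 3.83, adjusted p = 1.37e-08), the only member that was higher in either fetal group than in adult cells at the threshold. It was 3.33-fold lower in OC.2+ than in adult cells (95% interval 2.88 to 3.86, adjusted p = 4.85e-09) and 11.0-fold lower in OC.2+ cells compared with OC.2- (95% interval 9.51 to 12.8, adjusted p = 6.66e-11). Endothelial markers were also highest in OC.2- cells: all 5 measured ones were higher there than in adult cells (median log2 difference 1.80) and all 5 were lower in OC.2+ cells compared with OC.2- (median -2.90), with Kdr at 1.80 ± 0.13 and -2.90 ± 0.13. Their part in the Gys2 signal was not tested.

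Glycogen phosphorylase moved less. Pygl read 1279, 1192 and 1191 in adult, 912.9, 1062 and 832.1 in OC.2- and 419.7, 401 and 389.2 in OC.2+ cells, and stayed at or above the 89.7th percentile on every array. It was 1.31-fold lower in OC.2- than in adult cells (95% interval 1.14 to 1.51, adjusted p = 0.00392), a call that was lost after quantile normalization (log2 difference -0.16, adjusted p = 0.116). Between the fetal groups it was 2.31-fold lower in OC.2+ cells (95% interval 2.01 to 2.66, adjusted p = 2.42e-07), and against adult cells 3.03-fold lower in OC.2+ cells (adjusted p = 6.5e-09).

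Gys2 was higher and Pck1 and G6pc1 were lower in OC.2- than in adult cells, whereas all 3 were lower in OC.2+ cells than in either other group. Their unequal course was measured within each array, as log2 Gys2 minus log2 Pck1 or log2 G6pc1. Only the change of this quantity between groups can be read, since probe sets differ in brightness at equal RNA. Gys2 minus Pck1 was -3.34, -3.29 and -3.04 on the adult arrays, 3.48, 3.51 and 3.25 on the OC.2- arrays and 0.47, 0.37 and 0.47 on the OC.2+ arrays. The groups are far apart beside their spread, with OC.2- cells highest, adult cells lowest and OC.2+ cells between. From adult to OC.2- cells the quantity was higher by 6.64 ± 0.12 (SE, n = 3 against 3), a 99.7-fold shift of Gys2 against Pck1, and from adult to OC.2+ cells by 3.66 ± 0.10.

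For Gys2 minus G6pc1 the arrays gave -2.71, -3.25 and -2.81 in adult, 3.65, 3.44 and 3.65 in OC.2- and 1.31, 1.05 and 1.19 in OC.2+ cells. The order of the groups was the same. The difference from adult cells was 6.50 ± 0.18 to OC.2- and 4.11 ± 0.18 to OC.2+ cells. An exact permutation test of the 3 groups gave p = 0.00357 for each of the 2 quantities (p = 0.00357 after Benjamini-Hochberg adjustment over them), the smallest that 9 arrays in groups of 3 allow. The genes were chosen with earlier results of these data known, and each alone already separated the groups on these arrays. This p is therefore no separate evidence, and the share of other gene pairs that reach it was not computed. Any single pair of groups gave p = 0.1 in an exact two-sided permutation test, the smallest possible with 3 against 3 arrays. Pck1 and G6pc1 were dim in OC.2+ cells. Gys2 stood at percentiles 67.4 to 73.3 of the OC.2+ arrays, near Pck1 in OC.2- cells (70.9 to 72.9). The part of background in these values was not tested.

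**Figure D3:**
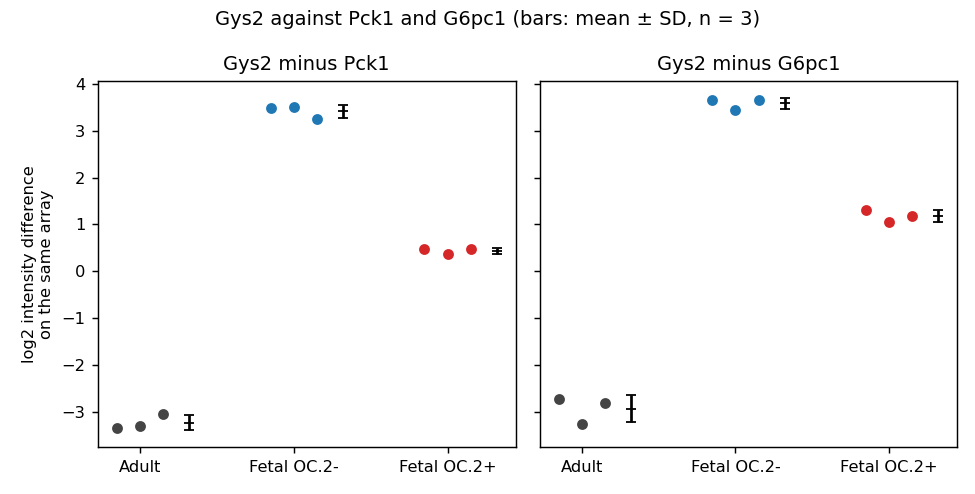
Log2 intensity of Gys2 minus that of Pck1 (left) or G6pc1 (right) on the same array (y axis), by group (x axis), with mean and SD of 3 arrays. The zero of the axis has no meaning, because it compares different probe sets. The OC.2- arrays lie between 3.25 and 3.65, the OC.2+ arrays between 0.37 and 1.31 and the adult arrays between -3.34 and -2.71.

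Slc2a2 encodes GLUT2, the transporter through which glucose enters and leaves hepatocytes. Its intensity was 1831, 1900 and 1848 in adult, 1008, 1279 and 990.1 in OC.2- and 139.3, 124.6 and 137.9 in OC.2+ cells. The drop lay mainly between the fetal groups: 1.71-fold from adult to OC.2- cells (95% interval 1.47 to 1.99, adjusted p = 3.09e-05) and 8.11-fold from OC.2- to OC.2+ cells (95% interval 6.97 to 9.43, adjusted p = 1.89e-10). Adult and OC.2+ cells differed 13.9-fold (adjusted p = 3.01e-12).

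Khk encodes ketohexokinase, which phosphorylates fructose. It read 859, 835 and 845.6 in adult, 288.7, 288.7 and 267 in OC.2- and 129.6, 121.4 and 148.2 in OC.2+ cells, with no overlap of groups. It was 3.01-fold lower in OC.2- than in adult cells (95% interval 2.65 to 3.42, adjusted p = 8.11e-09), 6.38-fold lower in OC.2+ than in adult cells (adjusted p = 1.74e-11) and 2.12-fold lower in OC.2+ cells compared with OC.2- (adjusted p = 3.1e-07). Equal values such as 288.7 on a pair of arrays occurred in 2.89% to 6.64% of all rows for any pair of arrays, within and between groups, and their cause was not tested.

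Pklr differed from the other members. It encodes the pyruvate kinase of liver and of red cells, which makes pyruvate at the end of glycolysis, opposite to the path that Pck1 serves. Its intensity was 1492, 1859 and 1653 in adult, 1109, 1139 and 1152 in OC.2- and 1906, 1853 and 1841 in OC.2+ cells. The OC.2- arrays lay below all others, and the adult and OC.2+ arrays overlapped. Pklr was 1.47-fold lower in OC.2- than in adult cells (95% interval 1.29 to 1.67, adjusted p = 0.000156) and 1.65-fold higher in OC.2+ cells compared with OC.2- (95% interval 1.45 to 1.87, adjusted p = 1.55e-05). Between OC.2+ and adult cells it differed by 0.17 ± 0.09 (95% interval -0.02 to 0.35, adjusted p = 0.116), a difference that turned to -0.06 after cyclic loess (adjusted p = 0.648) and passed at 0.44 after quantile normalization (adjusted p = 0.00158) and at 0.25 without the second adult array. The erythroid markers were also highest in OC.2+ cells, where all 7 measured ones rose over OC.2- cells (median log2 difference 1.71). The part of red-cell precursors in the Pklr signal was not tested, and 1 probe set cannot tell the liver and red-cell transcripts apart.

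Each liver enzyme has relatives used in other tissues, and these mostly did not follow it. Pck2, the mitochondrial carboxykinase, differed by -0.13 ± 0.08 between OC.2- and adult cells (adjusted p = 0.216), where Pck1 fell by 4.91. Pck2 was called lower there after quantile normalization (-0.23, adjusted p = 0.0364) and median centring (-0.26, adjusted p = 0.0253). In OC.2+ cells Pck2 was 1.55-fold higher than in adult cells (adjusted p = 2.5e-05). G6pc3, the phosphatase found in most tissues and needed by neutrophils, was 1.39-fold higher in OC.2- and 4.30-fold higher in OC.2+ than in adult cells (adjusted p = 0.00298 and 1.79e-09). In OC.2+ cells it was highest in the same preparations in which granulocyte markers were high, and their part in it was not tested. Fbp2, the muscle bisphosphatase, was dim everywhere, with group means of 6.18 to 6.30 log2 units. It passed no test on the deposited values, but was lower in both fetal groups than in adult cells under all 3 other scalings (log2 differences -0.28 to -0.22).

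The muscle-type glycogen synthase Gys1 was 2.02-fold higher in OC.2- and 2.08-fold higher in OC.2+ than in adult cells (adjusted p = 2.86e-06 and 1.07e-06). It was dim, with group means of 5.74 log2 units in adult, 6.76 in OC.2- and 6.80 in OC.2+ cells. Unlike Gys2 it differed by only 0.04 ± 0.10 between the fetal groups (95% interval -0.18 to 0.26, adjusted p = 0.829). Brain-type phosphorylase Pygb was 3.29-fold higher in OC.2- and 2.02-fold higher in OC.2+ than in adult cells (adjusted p = 9.91e-09 and 7.54e-07), while the liver form Pygl was lower in both. All OC.2+ arrays held the same Pygb value, 7.497 log2 units (SD 0), and the cause was not tested. Muscle-type Pygm was dim, with group means of 5.37 to 5.77 log2 units, and was higher by 0.38 in OC.2- and 0.40 in OC.2+ cells (adjusted p = 0.00108 and 0.000479).

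GLUT1 (Slc2a1), the transporter of red cells and many fetal tissues, was 3.92-fold higher in OC.2- and 2.18-fold higher in OC.2+ than in adult cells (adjusted p = 6.85e-09 and 7.17e-07). The pyruvate kinase of most non-liver tissues, Pkm, was 1.90-fold and 4.90-fold higher (adjusted p = 4.4e-07 and 2.29e-11). All OC.2- arrays held the same Pkm value, 7.968 log2 units (SD 0), and the cause was not tested.

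**Figure D4:**
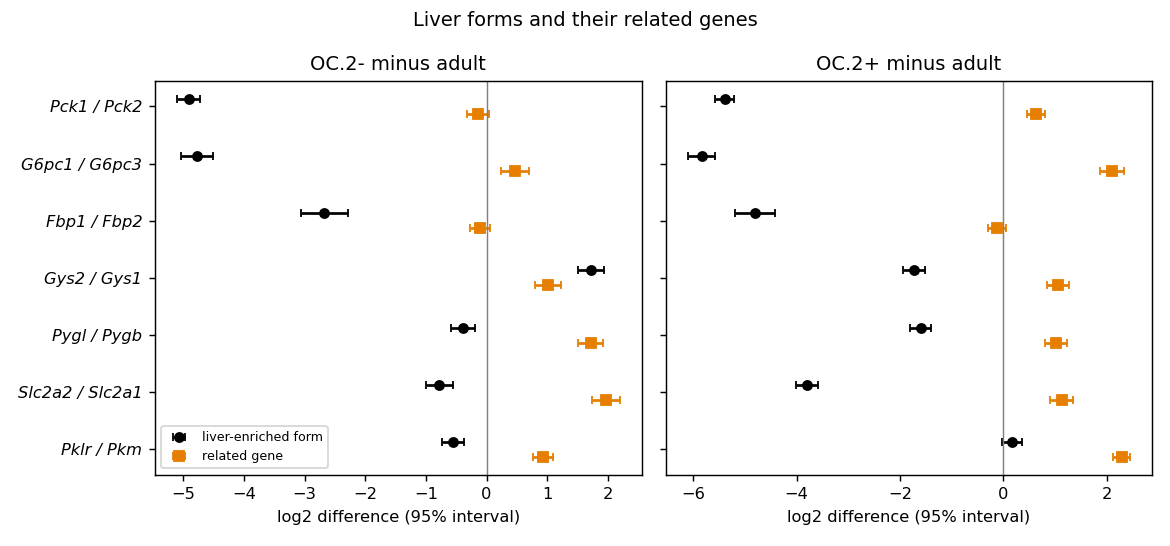
Log2 difference from adult cells (x axis, with 95% intervals) of 7 liver genes (black circles) and a related gene of each (orange squares), in OC.2- cells (left) and OC.2+ cells (right). In OC.2- cells Gys2 and Gys1 both lie to the right of zero, whereas the liver forms of the other pairs lie to the left.

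The wider pathway gave 21 measured gluconeogenesis genes beside the 8. The counts of this and the other lists below stand beside 23.7% of all genes higher and 20.9% lower in OC.2- against adult cells, 32% and 23.4% in OC.2+ against adult cells and 20.3% and 18.2% between the fetal groups. In OC.2- against adult cells 7 were higher, 8 lower and 6 not called (median log2 difference -0.08), and in OC.2+ against adult cells 5 were higher and 13 lower (median -0.92). Pyruvate carboxylase (Pc), which supplies oxaloacetate to Pck1, differed by -0.70 ± 0.10 in OC.2- and -2.62 ± 0.10 in OC.2+ cells. Slc37a4, which carries glucose 6-phosphate to the glucose-6-phosphatase, differed by -0.74 ± 0.09 and -2.10 ± 0.09. Both passed the test (highest adjusted p = 7.14e-05), so these partners of Pck1 and G6pc1 were lower in OC.2- cells too, by far smaller amounts than Pck1 or G6pc1.
In OC.2- cells the lowest were alanine aminotransferase Gpt at -1.57 ± 0.11 and the mitochondrial pyruvate carrier Mpc1 at -1.53 ± 0.12. Lactate dehydrogenase B (Ldhb), at 1.98 ± 0.14, and the isomerase Gpi, at 0.98 ± 0.09, were highest. Between the fetal groups 15 were lower in OC.2+ cells and 3 higher (median -0.55), with the aspartate aminotransferase Got1 lowest at -1.98 ± 0.12. In OC.2+ against adult cells the alanine aminotransferase Gpt2 at -2.66 ± 0.11 and Mpc1 at -2.62 ± 0.12 were lowest, and Gpi at 1.39 ± 0.09 was highest after G6pc3.

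Of 19 measured glycogen genes 6 were higher, 6 lower and 7 not called in OC.2- against adult cells (median -0.13). Pgm1, which makes the glucose 1-phosphate on the way to glycogen, was higher with Gys2, at 0.56 ± 0.08 (adjusted p = 0.000115). The branching enzyme Gbe1 was lower at -1.46 ± 0.12 (adjusted p = 5.65e-07), and Ppp1r3b, the liver subunit that brings a phosphatase to glycogen, was lower at -1.51 ± 0.09 (adjusted p = 3.16e-08). Ugp2, which makes UDP-glucose, differed by -0.38 ± 0.14 (adjusted p = 0.0388), with overlapping arrays, and lost its call after quantile normalization (-0.13, adjusted p = 0.41). Between the fetal groups 8 glycogen genes were lower in OC.2+ cells and 3 higher (median 0.02), led by Pgm1 at -2.32 ± 0.08 and Ugp2 at -2.29 ± 0.14 below and the glycogen primer glycogenin (Gyg1) at 1.58 ± 0.11 above. Against adult cells 8 were higher and 7 lower in OC.2+ cells (median -0.03), with Gbe1 lowest at -2.86 ± 0.12. In the same list Pgm2 was higher at 1.51 ± 0.09 in OC.2- and 1.23 ± 0.09 in OC.2+ cells against adult cells, and Ugp2 was at -2.67 ± 0.14 in OC.2+ cells. Phkg2, a subunit of the kinase that activates phosphorylase, was higher by 1.04 ± 0.08 in OC.2+ cells compared with OC.2-.

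Among 15 measured genes of hexose entry, liver glycolysis and fructose use, 5 were higher and 6 lower in OC.2- against adult cells (median 0.17). Of the genes that handle fructose beside Khk, triokinase Tkfc was at -2.50 ± 0.08, sorbitol dehydrogenase Sord at -1.65 ± 0.10 and the fructose transporter Slc2a5 at -1.27 ± 0.12 (adjusted p of at most 1.55e-06). Tkfc and Slc2a5 differed between the fetal groups by -0.12 ± 0.08 (adjusted p = 0.279) and 0.00 ± 0.12 (adjusted p = 0.995). Slc2a5 was dim in both, with means of 5.935 log2 units in OC.2- and 5.936 in OC.2+ cells, levels that may be background. Gckr was lower at -2.18 ± 0.08, and hexokinase Hk1, the form of most other tissues, was higher at 1.47 ± 0.07.
Between the fetal groups 3 of the 15 were higher and 6 lower (median -0.10). Slc2a3, a transporter of neurons and leukocytes, was highest at 2.31 ± 0.16, followed by Hk1 at 2.02 ± 0.07. The glycerol phosphate dehydrogenase Gpd1 at -2.35 ± 0.13 and Pfkfb1, the liver form of the enzyme that sets fructose 2,6-bisphosphate, at -2.15 ± 0.20 were lowest. Against adult cells 7 were higher and 8 lower in OC.2+ cells (median -0.62), from Gpd1 at -4.06 ± 0.13 to Hk1 at 3.49 ± 0.07.

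Of the 26 measured genes of hormone and transcription control, 19 were lower and 3 higher in OC.2- against adult cells, where 20.9% of all genes were lower and 23.7% higher (median -1.03), among them the glucagon receptor Gcgr at -1.30 ± 0.11, the glucocorticoid receptor Nr3c1 at -1.26 ± 0.10 and Cebpa, a transcription factor needed for Pck1 and Gys2 expression in mice, at -1.13 ± 0.12. Tyrosine aminotransferase (Tat), another gene induced by glucocorticoids and cyclic AMP around birth, had the largest difference of this list at -6.90 ± 0.10, and Hsd11b1, which makes active glucocorticoid inside the cell, was at -2.39 ± 0.08.
Among the 3 genes of this list that were higher in OC.2- than in adult cells were Ppargc1a and Igfbp1. Ppargc1a, a coactivator of gluconeogenic genes, was 2.05-fold higher in OC.2- than in adult cells (adjusted p = 1.5e-05), and Igfbp1, an insulin-repressed secreted protein, 1.68-fold higher (adjusted p = 0.000513). Both were lower in OC.2+ than in adult cells, at -0.79 ± 0.12 and -2.16 ± 0.13. Ppargc1a was dim, with mean log2 intensities of 5.93 in adult, 6.96 in OC.2- and 5.14 in OC.2+ cells. Array medians over named genes were 6.59 to 6.72, and the part of background in the Ppargc1a differences was not tested. Foxo1, which mediates insulin's effect on G6pc1, differed by -0.29 ± 0.10 in OC.2- and -2.10 ± 0.10 in OC.2+ cells. In OC.2+ against adult cells 23 of the 26 were lower and 2 higher (median -1.85), and against OC.2- cells 16 were lower and 4 higher (median -1.09), with Hnf4a at -2.60 ± 0.10 among the lowest. The transcription factor Foxo3 was higher in OC.2+ cells than in both other groups, at 1.24 ± 0.08 over OC.2- and 1.46 ± 0.08 over adult cells. Creb1, which binds cyclic AMP response elements, was higher by 0.43 ± 0.10 against adult cells (adjusted p = 0.00332). Sik1, a kinase induced by cyclic AMP, was higher by 0.42 ± 0.15 in OC.2+ cells compared with OC.2- (adjusted p = 0.0411), a call lost after cyclic loess (adjusted p = 0.109). Igfbp1 was lowest in that comparison, at -2.91 ± 0.13. Nr0b2, a nuclear repressor of gluconeogenic and bile acid genes, was at -2.96 ± 0.10 in OC.2- cells against adult cells. Tat and Hsd11b1 were lowest in OC.2+ against adult cells, at -6.71 ± 0.10 and -4.74 ± 0.08.

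Since hepatocyte markers were themselves lower in OC.2+ cells, each gene was also set against the mean log2 intensity of the same 10 plasma protein genes on its array. That mean was 13.10 in adult, 12.87 in OC.2- and 11.03 in OC.2+ cells, a difference of -1.84 ± 0.06 between the fetal groups and of -0.23 ± 0.05 between OC.2- and adult cells (SE, 3 arrays a group). In the first of these Alb differed by -0.32 ± 0.08 and Apoa2 by -2.97 ± 0.08, so the reference genes were unequal among themselves.
Relative to them Gys2 differed by 1.96 ± 0.07 between OC.2- and adult cells and by -1.62 ± 0.06 between OC.2+ and OC.2- cells. Its level in OC.2+ relative to adult cells was then 0.34 ± 0.06 higher, where the unadjusted difference was -1.74 ± 0.10, and it ranged from 0.494 to 0.68 under the other scalings and reference definitions tried. On this scale Slc2a2 differed by -1.18 ± 0.10 between the fetal groups and Fbp1 by -0.29 ± 0.24, the latter with overlapping arrays and at 0.039 when the median of the reference genes was used. The other 5 members had higher relative values in OC.2+ cells, with no overlap of arrays: Pck1 by 1.36 ± 0.04, G6pc1 by 0.77 ± 0.11, Pygl by 0.64 ± 0.08, Khk by 0.76 ± 0.09 and Pklr by 2.56 ± 0.06. A gene of unchanged intensity would also read higher on this scale, because the reference mean itself differed by -1.84. Before the reference was subtracted, the median difference of all genes between the fetal groups was 0.04. The share of all genes without overlap on this scale was not computed. Pck1, G6pc1 and Khk were dim in OC.2+ cells, at percentiles 30.4 to 66.3 of their arrays, and Gys2 stood at percentiles 67.4 to 73.3 there. The part of background in these values was not tested.

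Against adult cells Pck1 and G6pc1 stayed far lower on this scale, by -4.68 ± 0.06 and -4.54 ± 0.18 in OC.2- and by -3.32 ± 0.05 and -3.77 ± 0.16 in OC.2+ cells. Pygl was at -0.16 ± 0.07 in OC.2- cells, which turned to 0.13 after quantile normalization and 0.11 after cyclic loess, and at 0.48 ± 0.04 in OC.2+ cells, where the same alternatives and other reference definitions gave 0.677 to 0.819. Every pair of groups without overlap gave p = 0.1 in an exact two-sided permutation test, the smallest that 3 against 3 arrays allow.

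**Figure D5:**
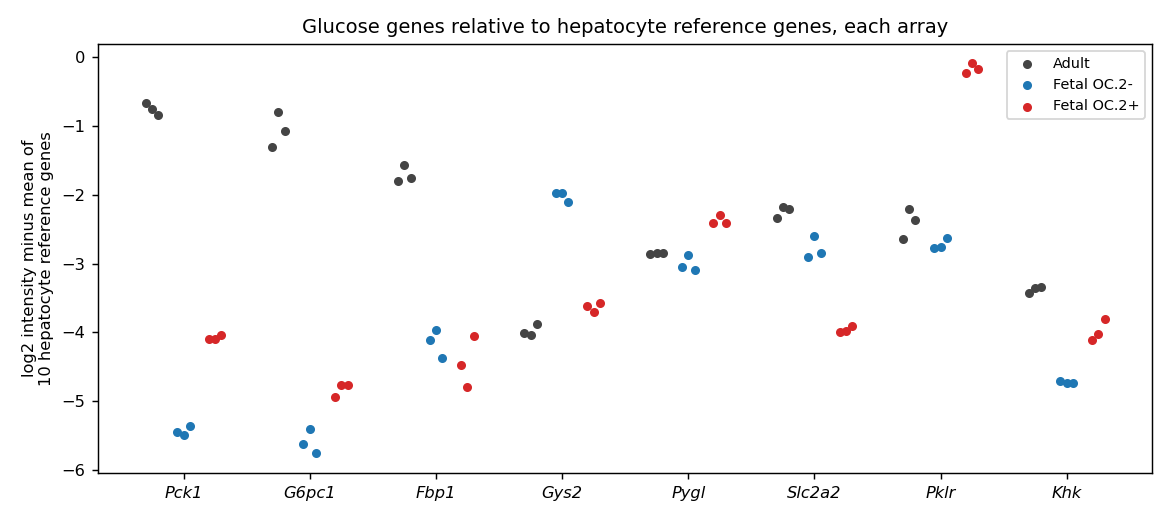
Log2 intensity of each gene minus the mean log2 intensity of 10 hepatocyte reference genes on the same array (y axis), for 8 genes (x axis) and 3 arrays a group. Only changes between groups of 1 gene can be read. Gys2 is highest in OC.2- cells, Pklr in OC.2+ cells, and Pck1, G6pc1 and Fbp1 in adult cells.

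The 5 genes nearest to Gys2 in their course over the 9 arrays were Fmo1, Adgrf5, Cldn1, Tspan7 and Aqp9, with a root mean square difference of centred log2 profiles of 0.235 to 0.292 (Pearson r of 0.981 to 0.989, as a description over 9 arrays in 3 groups). Fmo1 is a flavin monooxygenase, Adgrf5 an adhesion receptor known from endothelial and lung epithelial cells, Cldn1 a tight junction protein, Tspan7 a tetraspanin and Aqp9 the channel through which hepatocytes take up glycerol. Aqp9 had group means of 9.71 in adult, 11.37 in OC.2- and 8.45 in OC.2+ cells. Nearest to Pck1 were Sult1b1, Mtarc1, Akr1c2, Cyp2d3 and Cyp2c6v1, at 0.173 to 0.238, and among these Sult1b1, a sulfotransferase, differed by -5.26 log2 units between OC.2- and adult cells. Nearest to G6pc1 were Igf1, Cyp4f1, Pck1, Gstm2 and Mug2, at 0.225 to 0.331. Igf1, the growth factor that the liver secretes under growth hormone, had means of 13.10, 8.70 and 7.25 in adult, OC.2- and OC.2+ cells.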

How the data were processed

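RNA of 9 rat liver cell preparations, 3 a group by the sample titles, was measured on 1 array each. The authors deposited probe set intensity values on a linear scale, and the submitters' processing notes name Partek 6.6 and RMA with no role or order. RMA can shrink differences of dim genes. For the build and the authors' annotation the sources used here give no name. Of 28826 rows, the probe annotation gave 1 symbol to 15209, several to 306 and none to 13311, and current rat genes (GRCr8) held 15178 of the single ones, with 0 renamed. Log2 was taken, and the row with the highest mean stood for a gene, with no filter on dim genes. Groups were fitted in limma 3.58.1 (R 4.3.3, lmFit and eBayes, 9 arrays, 6 residual degrees of freedom), with Benjamini-Hochberg adjustment over all 14497 genes, a threshold of 0.05 and 2-sided tests. Standard errors of log2 differences had a median of 0.095, and the number of arrays limits the precision. Exact permutation tests used SciPy 1.17.1. Fits were tested on simulated data.

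The replicates are called biological in the titles. The members and lists were chosen with earlier results of these data known. Named genes were all members and their listed relatives, the nearest 5 of Gys2, Pck1 and G6pc1 and, of each wider list, up to 2 called genes highest and 2 lowest in a comparison. Slc37a4, Pgm1, Sord, Slc2a5, Gcgr, Nr3c1, Cebpa and Foxo1 were added after their values were seen, for their roles. The 10 reference genes came from the marker list of hepatocytes. Alternatives covered scaling, dim genes, probe sets, rows, variance, weights, samples, replicate block, threshold and left-out replicates.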

Additional observations from a re-analysis of the deposited data

How the results depend on the processing

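Of 480 recomputed log2 differences of the 8 genes, 476 kept their direction and side of the threshold. Pygl in OC.2- against adult cells lost its call after quantile normalization (-0.16, adjusted p = 0.116), and Pklr in OC.2+ against adult cells turned to -0.059 after cyclic loess and was called after quantile normalization (0.44) and without adult replicate 2 (0.25). Pklr in OC.2- against adult cells moved from -0.55 to -0.31 after quantile normalization, and its call held. The counts of the 8 genes called ranged from 7 to 8 over all alternatives in the comparisons with adult cells and stayed at 8 between the fetal groups. With all rows of the table tested, 9811 and not 6458 features were called in OC.2- against adult cells and 12841 and not 8034 in OC.2+ against adult cells, because more features were tested. Higher genes were 53.1% of those called in OC.2- against adult cells, 34.6% after median centring and 42.5% after cyclic loess. In OC.2+ against adult cells they were 57.8%, 42.5% and 42.2%. The cause was not tested. Arrays with the same replicate number did not deviate together (correlations of -0.226 to 0.106 over 9 pairs, 1 above 0.1). Over 18 pairs with different numbers the correlations were -0.16 to 0.285, with 4 above 0.1. A pairing in another order was not tested. With the replicate number as a block, 5416, 6199 and 7777 genes were called in OC.2+ against OC.2-, OC.2- against adult and OC.2+ against adult cells, against 5576, 6458 and 8034 without it, and 8, 8 and 7 members were called as before. The block gave exact p = 0.0278, the smallest it allows, for Gys2 against Pck1 and against G6pc1, and 0.00357 was found under every other alternative run.

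Relative to the reference genes, 180 of 240 recomputed values stayed within the spread between replicates. Every run that left out 1 replicate did so, but most values from another scaling or reference moved beyond that spread. For Pck1 between the fetal groups 0 of 4 such values stayed within it. The same held for Gys2, Pygl, Slc2a2 and Khk in OC.2+ against adult cells. Across all runs 3 values changed sign. These were Pygl in OC.2- against adult cells, at 0.13 after quantile normalization and 0.11 after cyclic loess, and Fbp1 between the fetal groups, at 0.039 against the median of the reference genes. Gys2 in OC.2+ against adult cells moved from 0.34 to between 0.494 and 0.68 under all 4 other scalings and references. These alternatives were chosen after seeing the data. With no detection call, levels near the array median may be background. This bears on G6pc1, Pck1, Fbp1, Khk, Slc2a2 and Gys2 in OC.2+ cells and on Pck1 and G6pc1 in OC.2- cells.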
